A study of Rattus norvegicus with 6 samples.

Results

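Genes of the cell cycle and genes of neural progenitors and young neurons were examined in the hippocampus of rats exposed to noise. They were taken by name, as 38 gene symbols. Of these, 37 had a transcript cluster (the unit of the array, usually a gene) that carried their symbol alone, and Birc5 had none. The 37 genes are 26 of the 27 proliferation genes and all 11 progenitor and neuroblast genes, out of 20155 genes read in the same way from 29489 clusters. Where several clusters carried a symbol, the brightest stood for the gene.

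The study hybridised 3 arrays for each group, of the type Affymetrix Rat Gene 2.0 ST. Rats of the noise group heard white noise of 2 to 20 kHz at 115 dB SPL during 4 hours on each of 3 days. All were 3-week-old female Sprague-Dawley rats (strain SD), and the control rats sat in the same kind of chamber without the noise. Each array carried RNA pooled from a pair of rats, and rats of both groups had been anaesthetized for a hearing test some hours before the tissue was taken. By their labels the control arrays have the numbers 1, 2 and 6, and the noise arrays 2, 3 and 4. The methods describe the dissection by the dorsal CA3 field and the adjoining CA2 and dentate gyrus, so the share of dentate tissue on each array is not known.

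A cell that divides passes through phases that are driven by cyclins bound to cyclin-dependent kinases. D-type and E-type cyclins open the way to DNA synthesis, for which the Mcm helicase, Pcna and the enzymes of nucleotide supply are made, and cyclins A and B with Cdk1 lead the cell into mitosis. In the hippocampus of young rodents, division continues in the subgranular zone of the dentate gyrus, where neural stem cells give rise to intermediate progenitors and then to neuroblasts that mature into granule neurons. Precursors of oligodendrocytes, microglia and endothelial cells also divide there, so a cell cycle gene in bulk tissue does not name the dividing cell type. In bulk RNA, fewer cells of a type and less RNA per cell cannot be told apart.

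Many genes of mitosis are known to carry in their promoters the cell cycle genes homology region, searched here as TTTGAA, together with CCAAT boxes, and many replication genes carry E2F sites, searched as GCGGGAA. Both strands were searched in the RefSeq promoters of assembly GRCr8, each of 300 bases about a gene's start, and 30 of the 37 genes matched one. TTTGAA was found in 8 of 20 proliferation promoters and in 3 of 10 progenitor and neuroblast promoters, against 18.3% of all 33469 promoters. CCAAT was found in 14 of the 20 and in 6 of the 10, against 37.5% of all. Both together were found in 6 proliferation genes, Mki67, Top2a, Cdk1, Ccnb2, Plk1 and Cenpf, and in Sox2 and Sox11, against 7.41% of all promoters. GCGGGAA was found in Mcm3, Mcm5 and Mcm7 and in no progenitor or neuroblast promoter, against 4.21% of all. The E-boxes CAGATG and CAGCTG, letters that neurogenic transcription factors such as Neurod1 can bind, were found in 1 and 1 of the 20 and in none and 1 of the 10 (16.6% and 15.1% of all promoters). The following 4 promoters are shown because they hold these letters in genes whose array values are given later. Capitals mark these homology regions, CCAAT boxes and E2F letters on either strand, so that a CCAAT box on the opposite strand reads ATTGG. In Mki67 a TTTGAA and an ATTGG share a base.
Cdk1 promoter (GRCr8, chr20:19265043-19265342, plus strand): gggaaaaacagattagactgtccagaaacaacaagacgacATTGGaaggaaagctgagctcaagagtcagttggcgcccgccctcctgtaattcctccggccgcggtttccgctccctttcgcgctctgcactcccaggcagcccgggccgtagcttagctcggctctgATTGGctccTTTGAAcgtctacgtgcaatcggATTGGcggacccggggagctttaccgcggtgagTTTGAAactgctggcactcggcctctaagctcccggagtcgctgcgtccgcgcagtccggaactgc
Plk1 promoter (GRCr8, chr1:186147408-186147707, plus strand): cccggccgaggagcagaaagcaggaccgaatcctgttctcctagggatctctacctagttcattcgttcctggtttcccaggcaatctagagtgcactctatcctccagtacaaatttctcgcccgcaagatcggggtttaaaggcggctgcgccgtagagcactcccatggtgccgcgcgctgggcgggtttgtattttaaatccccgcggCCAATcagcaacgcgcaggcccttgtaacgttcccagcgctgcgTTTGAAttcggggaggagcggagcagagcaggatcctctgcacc
Mki67 promoter (GRCr8, chr1:199952544-199952843, minus strand): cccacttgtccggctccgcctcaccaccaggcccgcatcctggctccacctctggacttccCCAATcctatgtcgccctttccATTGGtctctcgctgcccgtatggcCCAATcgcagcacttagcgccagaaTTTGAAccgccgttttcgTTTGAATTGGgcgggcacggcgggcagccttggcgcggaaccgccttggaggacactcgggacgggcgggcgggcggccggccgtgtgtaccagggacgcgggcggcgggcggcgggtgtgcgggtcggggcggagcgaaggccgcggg
Mcm7 promoter (GRCr8, chr12:22163129-22163428, minus strand): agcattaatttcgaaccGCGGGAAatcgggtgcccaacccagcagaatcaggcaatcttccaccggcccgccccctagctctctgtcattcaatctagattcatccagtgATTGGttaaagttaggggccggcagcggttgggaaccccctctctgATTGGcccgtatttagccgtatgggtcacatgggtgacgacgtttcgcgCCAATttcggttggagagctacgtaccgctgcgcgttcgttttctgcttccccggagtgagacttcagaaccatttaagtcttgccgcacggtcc
A match is a description of the letters and not a binding site.

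None of the 37 genes passed the thresholds of the study, a p up to 0.05 before adjustment together with a 1.5-fold difference. With limma, linear models whose variances are moderated across clusters, 0 were higher and 0 were lower. Of all 20155 genes, 0.288% were higher and 0.595% were lower, 0.883% in all, so that a count of 0 among 37 genes is close to the background. At an unadjusted p of 0.05 without the fold threshold, 0 of the 37 passed with limma and 1 with the equal-variance test named in the methods, against 9.22% and 9.29% of all genes. The limma count was 1, 2 and 1 without control arrays 1 (Aurka), 2 (Bub1 and Neurog2) and 6 (Tyms). It was 1, 2 and 4 without noise arrays 2 (Sox11), 3 (Top2a and Ccnb1) and 4 (Mcm6, Mcm7, Neurod1 and Sox2). The share of all genes at that p was not counted with arrays left out. These counts therefore have no matching background and are not read as a result. With the methods' equal-variance test none of the 37 passed both thresholds, against 0.541% of all genes. After Benjamini-Hochberg adjustment over all clusters, which 0.0149% of genes passed at 0.05, the smallest adjusted p among the 37 was 0.499 (limma). The median log2 difference, noise less control, was -0.03 over the 26 proliferation genes and -0.06 over the 11 progenitor and neuroblast genes, against 0.00 over all genes. Positive differences were found for 12 and negative ones for 14 of the proliferation genes, and for 4 and 7 of the others.

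**Figure D1:**
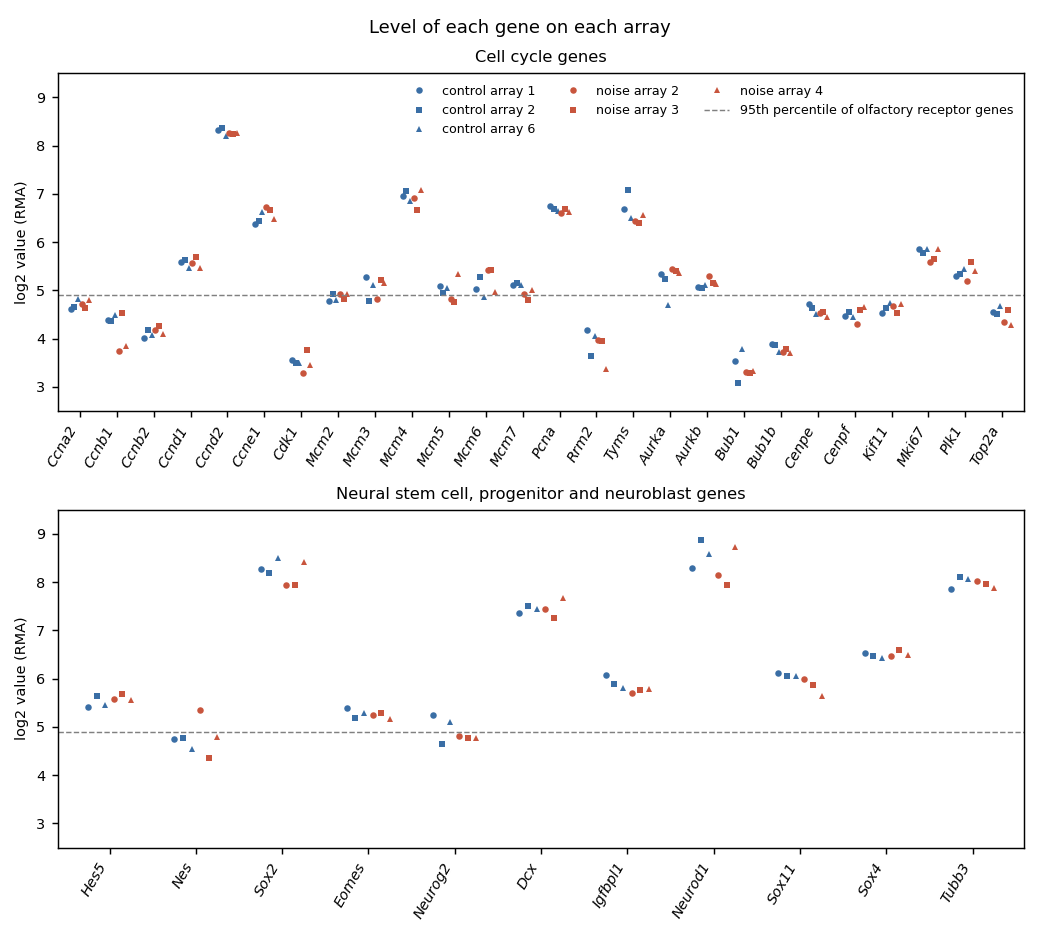
Level of the 37 genes on each of the 6 arrays (log2 RMA value, y axis), with cell cycle genes above and progenitor and neuroblast genes below; blue symbols are control arrays and red symbols noise arrays. The dashed line at 4.90 is the 95th percentile of 1150 olfactory receptor genes, and 14 of the 37 genes have a mean under it.

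Confidence intervals show which sizes of change in array signal the 6 arrays leave for each gene. The 95% interval of the difference (limma) lay within the 1.5-fold bounds for 28 of the 37 genes, 21 of the proliferation genes and 7 of the progenitor and neuroblast genes, and it held 0 for all 37. For Ccnb1, Mcm6, Aurka, Rrm2, Tyms, Neurod1, Sox2, Nes and Neurog2 the interval passed the 1.5-fold bound on at least 1 side, so that a change of that size remains possible. Of genes with intervals inside the bounds, Cdk1, Ccna2, Ccnb2, Mcm2, Top2a, Bub1, Bub1b, Kif11, Cenpe and Cenpf have a signal that can be background. For these the interval bounds the signal and not the change in transcript. The median of the intervals' half-widths was 0.27 on the log2 scale, against 0.28 over all genes. The SD between arrays of a group, pooled over the groups, had a median of 0.13 over the 37 genes and 0.14 over all genes, and it ran from 0.05 to 0.37.

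**Figure D2:**
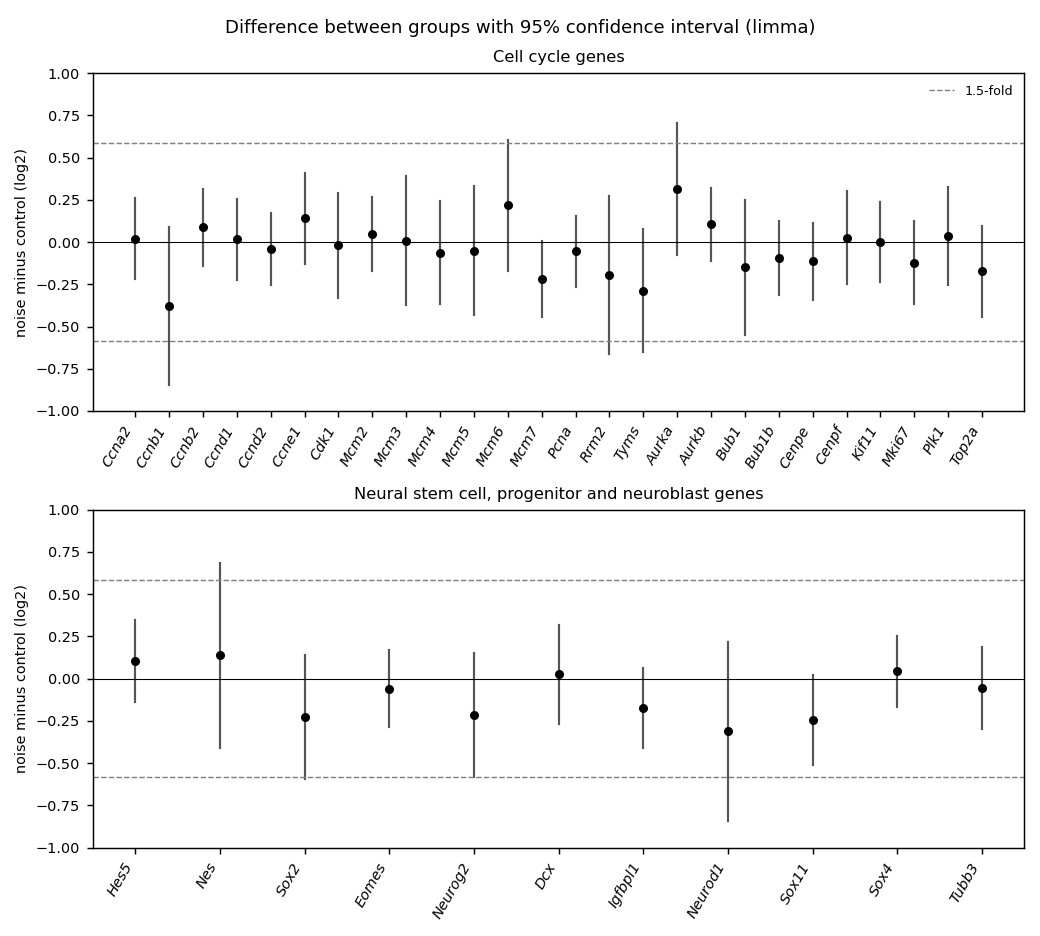
Difference between the groups (log2, noise less control, y axis) for each of the 37 genes as points, with 95% confidence intervals from limma as bars (n = 3 arrays per group); dashed lines mark 1.5-fold in each direction. All 37 intervals hold 0, and the widest reach is that of Ccnb1, down to -0.84.

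The arrays had no detection calls, and the signal of probe sets for genes that the hippocampus is not known to use gives a measure of background. For 1150 olfactory receptor genes the mean log2 value had a median of 2.88 and a 95th percentile of 4.90. Of the proliferation genes 14 and of the progenitor and neuroblast genes 9 had a mean above 4.90, as did 62.6% of all genes. The 14 genes under it were Cdk1, Ccna2, Ccnb1, Ccnb2, Mcm2, Rrm2, Top2a, Bub1, Bub1b, Kif11, Cenpe, Cenpf, Nes and Neurog2. For these the signal can be background in part or in whole, and a change in a few dividing cells may not be seen on the array.

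The D-type and E-type cyclins differed between groups by at most 0.14 on the log2 scale. Ccnd2, the D-type cyclin that adult-born granule cells of the mouse require, was at 8.33, 8.37 and 8.20 in the control group and at 8.26, 8.25 and 8.26 in the noise group (log2 values, here and below in the order of the array numbers). The noise values lay inside the control range, and the difference was -0.04 with a 95% interval from -0.26 to 0.17. Ccnd1, which answers to growth factor signals, was at 5.59, 5.63 and 5.46 in the control group and at 5.58, 5.69 and 5.46 in the noise group. Ccne1, which opens S phase with Cdk2, was at 6.37, 6.45 and 6.63 against 6.72, 6.67 and 6.47. Here noise arrays 2 and 3 were above every control array and noise array 4 was not, and the difference was 0.14 with an interval from -0.13 to 0.41.

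The cyclins of S phase and mitosis lay under the 95th percentile of the olfactory receptor genes, and Ccnb1 was uneven within the noise group. Ccnb1, the main partner of Cdk1 at entry into mitosis, was at 4.38, 4.37 and 4.49 in the control group and at 3.74, 4.53 and 3.85 in the noise group. Noise arrays 2 and 4 were low, while noise array 3 was the highest of all, so that the groups overlapped. The difference was -0.38, which is 1.30-fold lower, with an interval from -0.84 to 0.09 (limma, adjusted p = 0.557). Without noise array 3 it was -0.62 and passed the thresholds of the study. Ccnb2 had values of 4.01, 4.18 and 4.08 against 4.17, 4.26 and 4.10, and Ccna2, the cyclin of S and G2 phase, 4.62, 4.65 and 4.83 against 4.71, 4.64 and 4.80. Both overlapped between groups, with differences of 0.09 and 0.02. Cdk1, the kinase of mitosis, was at 3.56, 3.50 and 3.49 against 3.28, 3.76 and 3.45, with a difference of -0.02 (interval -0.33 to 0.29).

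The 6 Mcm genes encode the subunits of the helicase that opens DNA for replication, and they did not move together. Mcm7 was at 5.12, 5.16 and 5.12 in the control group and at 4.93, 4.80 and 5.01 in the noise group. All noise arrays lay under the control range, the difference was -0.22 (interval -0.44 to 0.00), and the adjusted p of 0.499 (limma) was the smallest of the 37 genes. Mcm6 went the other way, at 5.02, 5.28 and 4.85 against 5.42, 5.42 and 4.97, with a difference of 0.22 and overlapping groups. Mcm4 was at 6.95, 7.05 and 6.85 against 6.92, 6.66 and 7.09, and its lowest and highest value were both on noise arrays. Mcm2, Mcm3 and Mcm5 had differences of 0.05, 0.01 and -0.05, and a second cluster of Mcm3 had 0.04.

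Other replication genes stayed within 0.29 of no difference on the log2 scale. Pcna, the sliding clamp of the replicating polymerases, was at 6.75, 6.69 and 6.64 against 6.60, 6.70 and 6.62 (difference -0.05, interval -0.26 to 0.16). Tyms, which makes thymidylate, was at 6.69, 7.08 and 6.50 against 6.43, 6.40 and 6.57. Control array 2 stood high, noise array 4 overlapped the control group, and the difference was -0.29 (interval -0.65 to 0.07). Rrm2, a subunit of ribonucleotide reductase, was at 4.17, 3.65 and 4.05 against 3.96, 3.94 and 3.38, with a difference of -0.19. Its second cluster had a difference of 0.25, so that the probe sets of this gene differed in sign.

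Genes of mitosis and of the proliferating nucleus were spread about 0. Mki67, which encodes the proliferation marker Ki-67, was at 5.85, 5.77 and 5.85 in the control group and at 5.59, 5.65 and 5.86 in the noise group. Noise arrays 2 and 3 were under the control range and noise array 4 was the highest of all, with a difference of -0.12 (interval -0.37 to 0.12). Top2a, a topoisomerase that separates DNA strands, was at 4.54, 4.51 and 4.67 against 4.35, 4.59 and 4.27, with a difference of -0.17. The promoters of Mki67, Top2a, Cdk1, Ccnb2, Plk1 and Cenpf hold both TTTGAA and CCAAT, and their differences were -0.12, -0.17, -0.02, 0.09, 0.04 and 0.02.

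Both Aurora kinases had all noise arrays above the control range, as no other proliferation gene did. Aurka, a kinase of the centrosome and spindle, was at 5.33, 5.24 and 4.70 against 5.45, 5.40 and 5.37. Control array 6 was far below the other arrays, and the difference was 0.31 (interval -0.08 to 0.70; limma, adjusted p = 0.559). Without control arrays 1 and 2, a setting that rests on control array 6 alone, it was 0.70 and passed the thresholds. Aurkb, a kinase of the chromosomal passenger complex, was at 5.08, 5.05 and 5.12 against 5.29, 5.15 and 5.12, a difference of 0.10, and the highest control and the lowest noise array were both at 5.12 after rounding. Plk1, another kinase of mitosis, was at 5.30, 5.33 and 5.44 against 5.19, 5.60 and 5.41 and overlapped. Bub1 and Bub1b, of the spindle checkpoint, had differences of -0.15 and -0.10, Kif11, a motor of the spindle, 0.00, and Cenpe and Cenpf, of the kinetochore, -0.11 and 0.02.

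Of the 37 genes, Aurka and Aurkb had groups that did not overlap with noise above, and Mcm7, Sox11 and Igfbpl1 with noise below. This is 5.41% and 8.11% of the 37 genes, and the background over all genes is 8.37% and 8.87%. With so few genes, neither count can be told apart from the background. Stated apart, the proliferation genes had 2 of 26 with noise above (7.69%) and 1 with noise below (3.85%). The progenitor and neuroblast genes had 0 of 11 with noise above and 2 with noise below, 18.2% against the 8.87% of all genes. For a single gene the exact permutation test (two-sided, 3 against 3) has 0.1 as its smallest p.

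Of the stem cell genes, Sox2 and Nes varied more within the noise group than within the control group, and Hes5 varied less. Sox2, a transcription factor of neural stem cells that astrocytes also express, was at 8.27, 8.19 and 8.50 in the control group and at 7.95, 7.93 and 8.41 in the noise group. Noise arrays 2 and 3 were below the control range and noise array 4 inside it, and the difference was -0.23 (interval -0.59 to 0.14). With single arrays left out it ran from -0.38 without noise array 4 to -0.14 without control array 6. A second cluster of Sox2 had -0.08. Nes, which encodes the intermediate filament nestin of stem cells and of young vessels, was at 4.76, 4.78 and 4.54 against 5.35, 4.35 and 4.79. It had the largest pooled SD of the 37 genes, 0.37, since the highest and the lowest array were both noise arrays, and the difference was 0.14 (interval -0.41 to 0.69). Hes5, a target of Notch signaling, was at 5.40, 5.65 and 5.46 against 5.59, 5.69 and 5.55, with a difference of 0.11.

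Both intermediate progenitor genes had overlapping groups. Eomes, which encodes the transcription factor Tbr2, was at 5.39, 5.19 and 5.28 against 5.24, 5.28 and 5.16. The groups overlapped, and the difference was -0.06 (interval -0.29 to 0.17). Neurog2, a proneural factor, was at 5.24, 4.64 and 5.11 against 4.80, 4.78 and 4.76, with a difference of -0.22 (interval -0.59 to 0.15). The noise arrays lay close together, between the lowest control array and the other two. Control array 2 was the lowest of all, and without it the difference was -0.40, whereas it was -0.09 without control array 1.

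The neuroblast genes split into those with overlapping groups, Dcx among them, and a pair without overlap. Dcx, the usual marker of neuroblasts, which encodes the microtubule-binding protein doublecortin, was at 7.35, 7.51 and 7.44 in the control group and at 7.44, 7.26 and 7.68 in the noise group. The noise values spanned the control range, with a difference of 0.03 (interval -0.27 to 0.32). Sox4 and Tubb3, a transcription factor of young neurons and the neuronal tubulin that mature neurons also make, had differences of 0.04 and -0.05. For Sox4 the interval ran from -0.17 to 0.25, and for Tubb3 from -0.30 to 0.19.

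The pair was Sox11 and Igfbpl1, with all noise arrays under the control range. Sox11, a transcription factor that acts with Sox4, was at 6.13, 6.05 and 6.06 against 5.995, 5.86 and 5.65. Its difference was -0.25 (interval -0.51 to 0.02; limma, adjusted p = 0.516), and noise array 4 was lowest. Igfbpl1, a marker of young granule neurons in the mouse, was at 6.07, 5.89 and 5.81 against 5.70, 5.77 and 5.78, with a difference of -0.17 (interval -0.41 to 0.07). In both, the nearest arrays of the groups were less than 0.1 apart on the log2 scale.

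Neurod1, which neuroblasts and mature granule neurons both express, had the largest pooled SD of the 6 neuroblast genes, 0.35. It was at 8.30, 8.87 and 8.58 in the control group and at 8.14, 7.94 and 8.73 in the noise group. Noise array 4 was within the control range and the other noise arrays were below it, and the difference was -0.31 (interval -0.84 to 0.22; limma, adjusted p = 0.667). It was -0.54 without noise array 4 and -0.15 without noise array 3. The 12 dentate granule cell markers, among them Prox1, which also stands in the list of other neuroblast genes, had list means of 6.24, 6.40 and 6.36 on the control arrays and of 6.19, 6.27 and 6.36 on the noise arrays. Of these 12 markers none was called, 1 was lower at an unadjusted p of 0.05 (4.91% of all genes), and none passed both thresholds with the methods' test. Their part in the values of Neurod1 was not tested.

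Other genes of the same pathways, from lists that were chosen with earlier results of these arrays known, held no called gene either. None of the 189 measured genes of 6 such lists was called by limma or by the methods' test, while 15 were higher and 7 were lower at an unadjusted p of 0.05 (limma), and 19 passed it with the methods' test. Of all genes, 4.32% were higher and 4.91% were lower at that p. Among 43 further replication genes 4 were higher and 2 were lower at that p, among 60 further mitosis genes 3 and 0, and among 12 further cyclins, cyclin-dependent kinases and their regulators 0 and 1. The medians of these lists were 0.00, -0.02 and -0.03 on the log2 scale. Pola2, a subunit of DNA polymerase alpha, and Aspm, a protein of the spindle pole, had differences of 0.30 and 0.36, and Cdk7, which activates other cyclin-dependent kinases, had -0.37.

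Among inhibitors of the cell cycle, some genes had all noise arrays above the control range. Of 19 measured, none was called, 4 were higher and 0 lower at an unadjusted p of 0.05 (limma), and the median was 0.00. Of all genes, 4.32% were higher at that p. Groups did not overlap for 5 with noise above, 26.3% of the list against 8.37% of all genes, and for 1 with noise below, 5.26% against 8.87%. Tob2, an antiproliferative protein of the Btg and Tob family, was at 5.93, 6.08 and 5.90 in the control group and at 6.49, 6.63 and 6.32 in the noise group. The difference was 0.51 (interval 0.24 to 0.78; limma, adjusted p = 0.334). Btg2 of the same family, which is also an immediate early gene, was at 5.43, 5.52 and 5.29 against 5.998, 5.70 and 6.02, with a difference of 0.49 (limma, adjusted p = 0.357). In both genes all noise arrays lay above the control range, and the fold was under 1.5. Tob1 and Btg1 of the same family had differences of -0.13 and -0.045, with overlapping groups. Gadd45b, a stress-induced gene, was at 5.47, 5.29 and 5.33 against 5.99, 5.67 and 5.58, and Cdkn2c, which blocks Cdk4 and Cdk6, at 4.17, 4.03 and 4.43 against 4.62, 4.46 and 4.46. Their differences were 0.38 and 0.31. Without noise array 3, Btg2 passed the thresholds at 0.60, as it did without control arrays 1 and 2 at 0.62, and Tob2 passed without noise array 4 at 0.59.

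**Figure D3:**
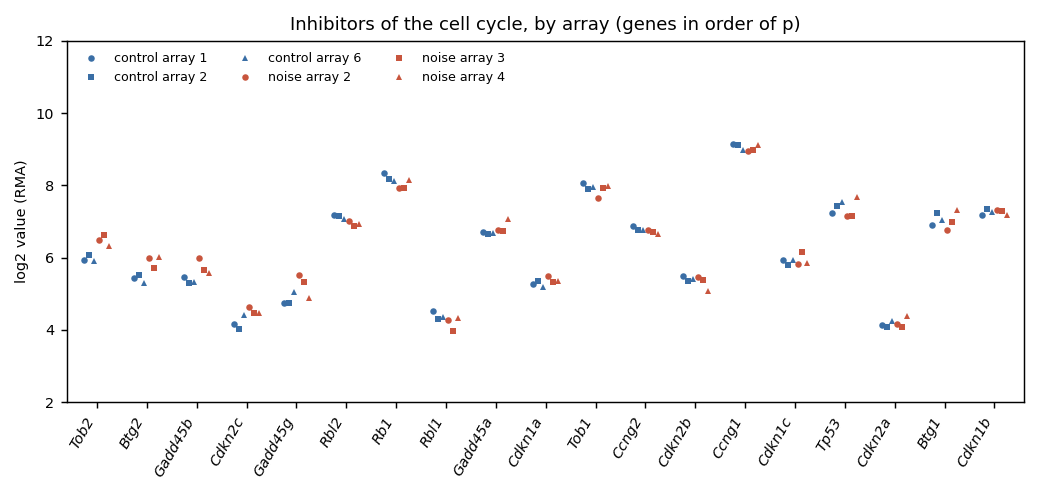
Level of 19 inhibitors of the cell cycle on each array (log2 RMA value, y axis), in order of p from limma; blue symbols are control arrays and red symbols noise arrays. Tob2, Btg2, Gadd45b and Cdkn2c, at the left, have all noise arrays above the control range.

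Of 25 other stem cell genes, 3 were higher and 2 were lower at an unadjusted p of 0.05 (limma), and none was called. Of all genes, 4.32% were higher and 4.91% were lower at that p, and 0.883% were called. Hes1, a Notch target that stem cells and astrocytes express, was at 5.64, 5.58 and 5.71 against 5.91, 6.25 and 6.05, with a difference of 0.43 (interval 0.16 to 0.69; limma, adjusted p = 0.363). The noise arrays were all above the control arrays, which was not so for Hes5. Id2, which blocks proneural factors, was at 4.14, 4.50 and 4.34 against 4.83, 4.72 and 4.68, a difference of 0.42. Of 30 other neuroblast genes, 1 was higher and 2 were lower at that p, and none was called. Dlx5 and Bhlhe22, transcription factors of interneurons and of granule and pyramidal neurons, had differences of -0.45 and -0.29. The medians of these lists were 0.03 and -0.02.

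Many markers of neighbouring tissue, of choroid plexus and of thalamus and habenula, were lower in the noise group. Both lists were chosen with earlier results of these arrays known. They hold genes that the paper reports as downregulated, such as Kl and Chrna3. The shares of all genes given beside their counts are therefore a description and no test. With limma, 10 of 15 choroid plexus markers were lower at the thresholds of the study and 5 did not pass. Of all genes, 0.595% were lower. The list means of these markers were 5.70 to 7.41 on the control arrays and 4.99 to 5.32 on the noise arrays. Of 11 thalamus and habenula markers, 6 were lower (limma) and 5 did not pass, among them Rgs16 with a difference of 0.36. Their list means were 5.65 to 6.23 and 5.27 to 5.52. The methods' test called 4 of the choroid plexus markers and 5 of the thalamus and habenula markers, against 0.541% of all genes. No marker of either list passed an adjusted p of 0.05 (limma). RMA gives each marker a level on each array, so none is at 0. The list mean of the proliferation genes ran from 5.12 to 5.15 on the control arrays and from 5.07 to 5.14 on the noise arrays, and these ranges overlapped. That of the progenitor and neuroblast genes was at 6.48 on each control array and at 6.43, 6.31 and 6.44 on the noise arrays, all under the control arrays. For the other stem cell genes it ran from 6.72 to 6.75 on the control arrays and from 6.73 to 6.81 on the noise arrays. For the other neuroblast genes it ran from 7.69 to 7.74 and from 7.53 to 7.76. Both of these lists overlapped between groups. The part of neighbouring tissue in the values of single genes was not tested. The setting without control arrays 1 and 2, where the choroid plexus markers were highest, leaves 1 control array and is no test of that part.

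Markers of the other cells that may divide had no called gene. Of 15 markers of oligodendrocyte precursors, 15 of microglia and 10 of endothelium none was called. At an unadjusted p of 0.05, 1 precursor marker and 1 microglia marker were higher and 3 endothelial markers were lower, against 4.32% higher and 4.91% lower of all genes. Emcn, an endothelial surface protein, had a difference of -0.49. The list means ran from 7.46 to 7.57 against 7.50 to 7.56 for the precursors and from 6.33 to 6.37 against 6.24 to 6.46 for microglia. Both of these overlapped between groups. For endothelium they ran from 6.5468 to 6.6823 on the control arrays and from 6.3988 to 6.546 on the noise arrays. All noise arrays were thus under the control arrays, the nearest by a small margin. Markers of hippocampal pyramidal cells had list means of 6.93 to 7.04 and 6.95 to 6.99, none of 14 was called, and 2 were lower at that p.

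**Figure D4:**
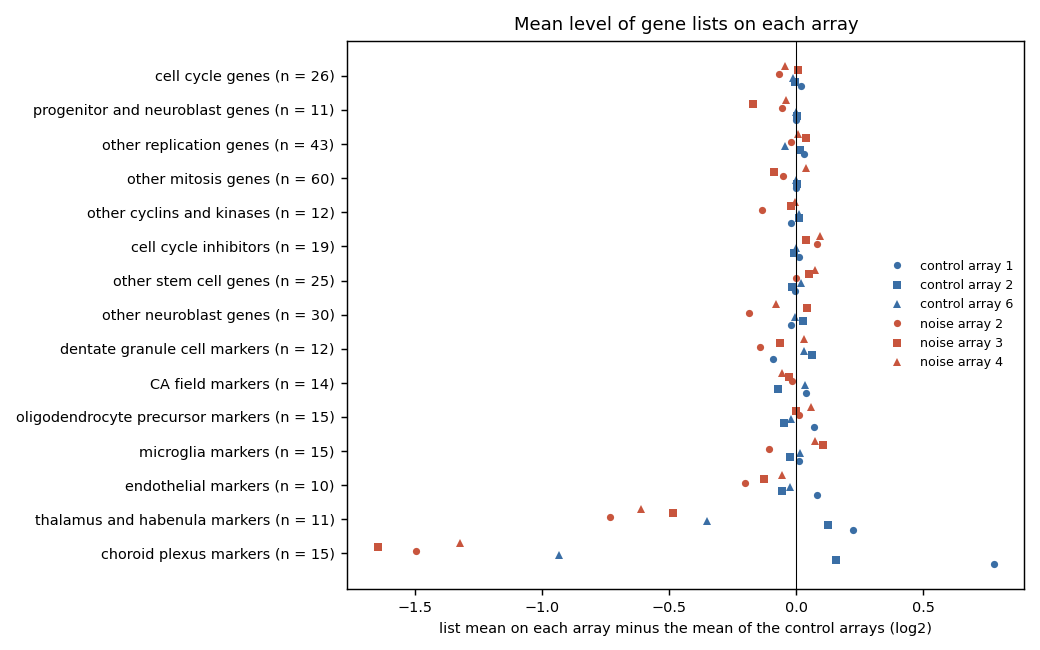
Mean level of each gene list on each array, as the distance from the mean of the control arrays (log2, x axis); blue symbols are control arrays and red symbols noise arrays, and n is the number of genes measured. The list of the 26 genes overlaps between groups, and the list of the 11 genes has all noise arrays (6.31 to 6.44) under the control arrays (6.48). The lists of other stem cell genes and of other neuroblast genes overlap. The endothelial markers have all noise arrays (6.3988 to 6.546) under the control arrays (6.5468 to 6.6823). The choroid plexus markers run from 5.70 to 7.41 on the control arrays alone.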

How the data were processed

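The log2 values used here were deposited by the authors, who made them in GeneSpring GX by the default Robust Multi-Array Average (RMA), 1 value for each of 29489 transcript clusters and 6 arrays. The median of control array 1 was 5.05, and renewed quantile normalization changed little, with 429 clusters called against 431. Pairs of arrays correlated across clusters at 0.9814 to 0.9905 (Pearson's r). The deposited log ratios, folds and p-values of the authors' own comparison were not used, nor was the annotation to the right of the values. Members and gene lists were matched by gene symbol, and 281 of 296 list entries matched. The members and lists were chosen with earlier results of these data known. All members are named, and of other lists at most 4 genes each, by smallest p where none was called. Tob1 and Btg1 are named besides these, as relatives of Tob2 and Btg2.

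Tests were run in R 4.3.3 with limma 3.58.1 on every cluster (lmFit and eBayes, group as the only term, 3.47 prior degrees of freedom, no filter), and the step was tested on simulated data. Intervals are at 95%. Adjusted p-values are by Benjamini-Hochberg over all clusters. Other settings were a trended and robust variance, array weights, renewed quantile normalization, the values of the series matrix, median centring, the brighter part of the clusters, the methods' t-test, the mean of all clusters of a gene, and leaving out each array. The omission of control arrays 1 and 2 was chosen after the data were seen. Precision is limited by the 6 arrays, and p-values measure the spread between pools of rats.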

Additional observations from a re-analysis of the deposited data

How the results depend on the processing

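No progenitor or neuroblast gene was called under any setting run. Of the proliferation genes, 0 to 1 were called when each array was left out in turn, Ccnb1 without noise array 3, and 1 was called without control arrays 1 and 2, Aurka. That last setting was chosen after the data were seen and leaves 1 control array, assumed to vary like the others. Of the genes of the other pathway lists, 1 was called with a trended and robust variance and 1 with array weights, St8sia4 in both, 1 without control arrays 1 and 2, Btg2, and 0 to 3 with each array left out. Over all clusters 431 were called, against 145 in the brighter part, 251 with the methods' t-test, 695 without control arrays 1 and 2, and 434 to 727 with each array left out, highest without noise array 4. The median of the proliferation genes was 0.0128 in the brighter part. Differences of 18 members changed sign in some setting, none of them above 0.1946 in size. Array weights gave -0.0487 for Mcm3 and the mean of all clusters of a gene 0.0298 for Rrm2. Without control arrays 1 and 2 the differences were 0.0089 for Cdk1, -0.1069 for Ccna2, -0.0049 for Ccne1, 0.0588 for Ccnd2, -0.0452 for Mcm3, 0.0343 for Mcm4, 7e-04 for Pcna, 0.0086 for Bub1b, -0.0427 for Plk1, -0.0972 for Kif11 and 0.0022 for Cenpe. With each array left out they ran from -0.1505 to 0.0872 for Cdk1, -0.0215 to 0.0844 for Ccna2, -0.0463 to 0.0553 for Kif11, -0.0833 to 0.1235 for Dcx, -0.1262 to 0.134 for Mcm3, -0.0392 to 0.0726 for Ccnd1, -0.3395 to 0.0067 for Bub1, -0.2361 to 0.0571 for Mcm5, -0.124 to 0.3776 for Nes, -0.1603 to 0.0529 for Mcm4, -0.061 to 0.1443 for Plk1 and -0.0446 to 0.1318 for Cenpf. The cause of these changes was not tested. No paired analysis was run, because the methods compared the groups as independent samples and the labels tie no control array to a noise array. Genes near background signal may hide changes in a few dividing cells.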
